A study of Mus musculus with 10 samples.

Results

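Transcripts of neutrophil granules and cytosol were followed here: S100a8, S100a9, Mmp8, Mmp9, Ngp, Camp, Ltf, Retnlg, Elane and Mpo. They were chosen by name, as 10 of the 39179 genes counted in each library, and all 10 were found, whether or not they had any reads. RNA came from the tibialis anterior, a fast-twitch leg muscle, of 10 mice in a model of cachexia, the wasting that accompanies cancer. The 6 LLC mice received Lewis Lung Carcinoma cells, a mouse lung tumor line, under the skin of both flanks, and the 4 Control mice received the buffer alone. Each mouse gave 1 library, and the sources used here describe no transgene and no other experimental treatment. The study's methods state that the mice were killed under ketamine and xylazine anesthesia. The sample labels give C57BL/6J mice, injected at 10 weeks of age and sampled at 23 days, whereas the series text gives male C57BL/10 mice of 8 weeks and 22 days, so strain, age and day are not settled. Per the study's methods, the sequenced LLC mice were ones that lived to the end of the experiment, which limits the group to survivors.

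Neutrophils build their granules in order as they mature in the bone marrow. Promyelocytes transcribe the primary granule genes, among them Elane and Mpo, and then switch them off. Myelocytes and metamyelocytes transcribe secondary granule genes such as Ltf, Camp and Ngp. Band and segmented cells carry transcripts of the gelatinase granule, such as Mmp9, and keep large amounts of S100a8 and S100a9, whose proteins pair as calprotectin, a metal-binding complex of the cytosol. Accordingly the members were read as 5 late genes (S100a8, S100a9, Mmp8, Mmp9, Retnlg), 3 intermediate genes (Ngp, Camp, Ltf) and 2 early genes (Elane, Mpo). Mmp8 is packed with the secondary granules, and its place among the late genes rests on its transcript being found in mature cells.

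The 5 late genes and 2 of the 3 intermediate genes were higher in LLC muscle, whereas the early genes were at or near 0 counts in both groups. Values are given as read counts or as CPM, counts put on the scale of one common library size with factors from the trimmed mean of M-values (TMM). A gene was called when the Benjamini-Hochberg adjusted p of edgeR's quasi-likelihood test was at most 0.05 and the change at least 1.5-fold. Of the 10 members, 7 passed the filter on low counts and all 7 of these were called higher in LLC, against 1.65% of the 12690 genes tested, and 0 were called lower, against 3.99%. These 7 passed the filter through the LLC libraries, where each was over the cutoff in 6 of 6, so the count of calls among them has to be read with that selection. DESeq2 called the same number, 7, higher in LLC, against 3.06% of all tested genes. The samples of the groups did not overlap for 6 members, all those called but Mmp9, against 6.41% of tested genes that were higher in LLC with no overlap.

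Libraries held 16693209 to 21303084 counts, and the muscle markers Ckm, Acta1, Myh4, Myh1, Tnnt3, Actn3 and Mb together reached 73980 to 117362 CPM in every library. LLC 1 stood apart, with the largest scaling factor (1.17, against 0.930 to 1.07 in the others) and a chi-square per degree of freedom of at least 121 against each other LLC library. Mitochondrial genes took 28.4% to 30.7% of counts in Control and 22.0% to 27.9% in LLC. In whole muscle, more neutrophils and more RNA per neutrophil cannot be told apart, and this holds for every member. Whether reads of a member came from neutrophils or from other cells was not tested either.

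**Figure D1:**
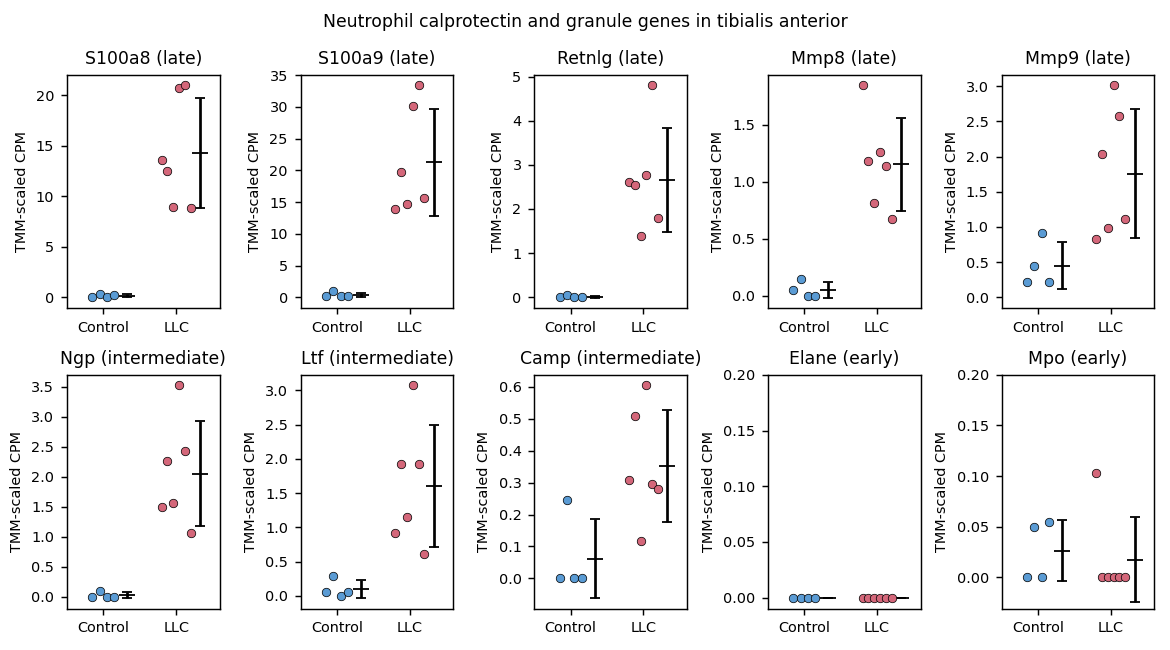
TMM-scaled CPM (linear axis, a separate scale in each panel) of the 10 members in 4 Control and 6 LLC libraries, 1 point per mouse, with the mean and SD as bars. For 6 members all LLC points lie above all Control points, Mmp9 and Camp overlap, and Elane and Mpo stay at or under 0.103 CPM.

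S100a8 and S100a9 encode the subunits of calprotectin, which neutrophils release to withhold zinc and manganese from microbes and which also acts as a danger signal. S100a9 had 5, 19, 3 and 3 counts in Control 1 to Control 4 and 270, 350, 254, 599, 675 and 279 counts in LLC 1 to LLC 6. In CPM these were 0.265, 0.937, 0.162 and 0.164 against 13.9, 19.7, 14.7, 30.2, 33.4 and 15.6. The lowest LLC library was far above the highest Control library, Control 2, and LLC 4 and LLC 5 stood above the other 4. S100a8 had 1, 7, 0 and 5 counts in Control and 265, 221, 155, 412, 424 and 158 in LLC. Its CPM was 0.0529, 0.345, 0 and 0.274 against 13.6, 12.5, 8.97, 20.7, 21.0 and 8.83. Here too the groups did not overlap and LLC 4 and LLC 5 were the highest. The log2 fold change was 6.33 ± 0.52 (SE) for S100a8 and 5.74 ± 0.49 for S100a9, with adjusted p of 0.000119 and 0.000121 by edgeR's quasi-likelihood test (Benjamini-Hochberg). Summed over each group, the read rate was 85.0 times as high in LLC for S100a8, with a 95% interval of 49.5 to 159.9 from counting error alone, since the 4 Control libraries held 13 counts together. For S100a9, with 30 Control counts, the ratio was 54.7 (38.2 to 81.2).

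The size of these ratios rests on Control 2, which had the most counts of the 4 Control libraries for 7 of the 9 members with any Control count. Without Control 2 the log2 fold change was 6.96 for S100a8 and 6.70 for S100a9. It was 5.25 for Ltf, 5.56 for Mmp8, 8.27 for Ngp and 8.64 for Retnlg, and all 6 of these calls held. With LLC 1 left out as well, a choice made after seeing the data, 7 members were called.

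Per kilobase of exon, the scale on which levels of different genes can be set side by side, S100a9 was the most abundant member in LLC, at 40.7 ± 16.2 CPM per kb (SD, n = 6). S100a8 followed at 20.6 ± 7.86 and was lower than S100a9 in 6 of 6 LLC mice. The next were Retnlg at 4.47 ± 2.00 and Ngp at 1.68 ± 0.722, each below its predecessor in 6 of 6. The order among Mmp9 at 0.497 ± 0.260, Mmp8 at 0.475 ± 0.170, Ltf at 0.465 ± 0.259 and Camp at 0.465 ± 0.231 changed from mouse to mouse, and these 4 levels did not differ beyond their spread.

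The subunits kept a near constant ratio to each other in 5 of the LLC mice. S100a8 made up 38.7%, 37.9%, 40.8%, 38.6% and 36.2% of the reads of both genes in LLC 2 to LLC 6. In LLC 1 its share was 49.5% (exact 95% binomial interval 45.2 to 53.9), and the intervals of those 5 libraries ended below this one, the highest of them at 43.9%. Summed over Control the share was 30.2% (17.2 to 46.1), too few reads for a narrower statement.

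**Figure D2:**
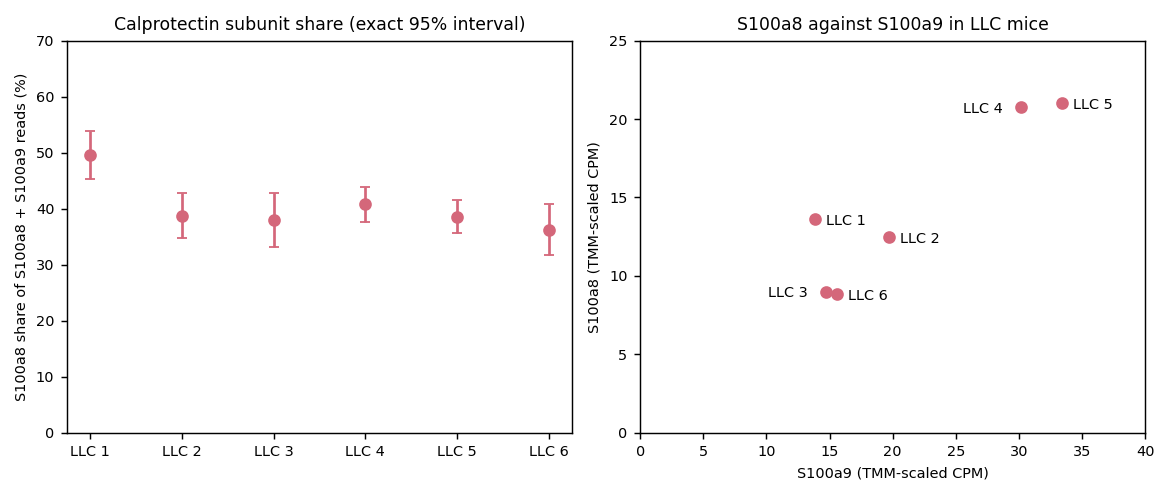
Left, the S100a8 share of S100a8 plus S100a9 reads (percent) in each LLC mouse with exact 95% binomial intervals. Right, TMM-scaled CPM of S100a8 against S100a9 in the 6 LLC mice, where LLC 1 has the highest share at 49.5% and LLC 4 and LLC 5 have the highest levels.

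Retnlg encodes a resistin-like protein made by neutrophils and their marrow precursors. It had a single count in the whole Control group, in Control 2, and 51, 45, 24, 55, 97 and 32 counts in LLC 1 to LLC 6. LLC 5 was the highest, at 4.81 CPM, and LLC 3 the lowest, at 1.39 CPM. Its log2 fold change of 7.08 ± 0.69 (SE) was the highest fitted for any member, with an adjusted p of 0.000188 by edgeR's quasi-likelihood test (Benjamini-Hochberg). With 1 Control count the ratio of 205 has an interval from 36.6 to 8138, so its place above S100a8 is not resolved. The related genes Retn and Retnla were tested and not called, at -0.74 ± 0.42 and -0.36 ± 0.40.

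Mmp8 encodes neutrophil collagenase, which cleaves fibrillar collagen. It had 1, 3, 0 and 0 counts in Control and 36, 21, 14, 25, 23 and 12 in LLC, and LLC 1 was the highest. It rose by 4.30 ± 0.57 on the log2 scale, with an adjusted p of 0.00109 by edgeR's quasi-likelihood test (Benjamini-Hochberg). Mmp9 encodes gelatinase B, which digests denatured collagen and basement membrane collagen and is made by other cells besides neutrophils. Its counts were 4, 9, 17 and 4 in Control and 16, 36, 17, 60, 52 and 20 in LLC. Control 3, at 0.919 CPM, lay above LLC 1, at 0.822 CPM, so the groups overlapped. The log2 fold change of 1.97 ± 0.51 (SE) passed with an adjusted p of 0.0400 by edgeR's quasi-likelihood test (Benjamini-Hochberg), which ranged from 0.00193 with DESeq2 to 0.232 over 19 alternatives. The call was lost in 8 of them. Among these, the adjusted p was 0.12 without Control 1, 0.107 without Control 2 and 0.122 without Control 4. It was 0.0546 without LLC 2, 0.0554 without LLC 4, 0.0838 without LLC 5 and 0.0537 without LLC 6. Without Control 3 the call held and the log2 fold change was 2.56.

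The metalloproteinases were also set against each other. Mmp8 made up 10.5% of Mmp8 plus Mmp9 reads summed over Control (exact 95% binomial interval 2.94 to 24.8, 38 reads) and 39.5% summed over LLC (34.2 to 44.9, 332 reads). In LLC 1 the share was 69.2% (54.9 to 81.3), and in the other LLC mice it ran from 29.4% to 45.2%. In Control 1 to Control 4 Mmp8 had 1 of 5, 3 of 12, 0 of 17 and 0 of 4 reads, so the summed Control share was 19.0% (5.45 to 41.9) without Control 3 and 3.85% without Control 2. These intervals cover counting error only, and the shares of the groups were not compared by a test.

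Ngp encodes a cystatin-like protein of secondary granules, abundant in marrow myelocytes. It had 2 counts in Control, both in Control 2, and 29, 40, 27, 70, 49 and 19 counts in LLC. Ltf encodes lactoferrin, the iron-binding protein that defines the secondary granule. Its counts were 1, 6, 0 and 1 in Control and 18, 34, 20, 61, 39 and 11 in LLC. For both genes the LLC mice were all above the Control mice, with LLC 4 the highest and LLC 6 the lowest. The log2 fold changes were 5.97 ± 0.67 (SE) for Ngp and 3.86 ± 0.68 for Ltf, with adjusted p of 0.000441 and 0.00615 by edgeR's quasi-likelihood test (Benjamini-Hochberg). Camp, the gene of the antimicrobial cathelicidin, was read less often. It had 0, 5, 0 and 0 counts in Control and 6, 9, 2, 12, 6 and 5 in LLC. It was over the filter cutoff in 1 LLC library and so was not tested. The 5 reads of Control 2, at 0.247 CPM, were above LLC 3, at 0.116 CPM, and the groups overlapped. When all genes with reads were tested, Camp had a log2 fold change of 2.34 ± 0.77 and an adjusted p of 0.108 by edgeR's quasi-likelihood test, and was not called. In that fit the other 7 members were called, against 1.15% of 21983 genes called higher.

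The primary granule genes were barely detected in either group. Elane, the neutrophil elastase gene, had 0 counts in all 10 libraries. At 3 counts, the upper limit that a count of 0 allows, its level was at most 0.0395 CPM over the Control group and 0.0267 CPM over the LLC group. Mpo, the gene of myeloperoxidase, which makes hypochlorous acid, had 1 count each in Control 2 and Control 4 and 2 counts in LLC 1. Its ratio of LLC to Control was 0.676, with an interval of 0.0490 to 9.32 that covers a change in either direction. An antisense gene overlaps an exon of Mpo, so even these reads depend on how strand was counted. A further 7 genes were examined, primary granule genes and regulators of granulocyte genes (Prtn3, Ctsg, Ms4a3, Fcnb, Serpinb10, Cebpe and Gfi1), and 0 passed the filter. Together with Elane and Mpo they held 9 counts over the 4 Control libraries and 16 over the 6 LLC libraries, at most 6 in any library. Ms4a3 and Cebpe were at 0 in every library. The regulator gene Gfi1 gave 5 of the Control counts and 1 of the LLC counts.

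The stages therefore contributed very unequal shares of the member reads. Of 5157 member reads in LLC, late genes held 4698, or 91.1% (exact 95% binomial interval 90.3 to 91.9). Intermediate genes held 457, or 8.86% (8.10 to 9.67), and early genes 2, or 0.0388% (0.0047 to 0.140). S100a8 and S100a9 gave 4062 of the late reads, so the late share rests mostly on this pair. The other late genes Retnlg, Mmp9 and Mmp8 had 304, 201 and 131 reads, and Ngp, Ltf and Camp 234, 183 and 40. Among the LLC mice the late share ran from 88.9% to 93.5% and the intermediate share from 6.53% to 11.1%. Control libraries held 99 member reads in all, of which late genes took 82, or 82.8% (73.9 to 89.7), and intermediate genes 15, or 15.2% (8.74 to 23.8). The 2 early reads of Control were 2.02% (0.246 to 7.11) of a small total. Control 2 held 53 of the 99 reads and 13 of the 15 intermediate ones, and without it the late share of Control was 93.5% (82.1 to 98.6) and the intermediate share 4.35% (0.531 to 14.8), on the other side of the LLC share. Without Control 4 the early share was 1.18%. Control and LLC shares were not compared by a test. Long transcripts yield more reads, and per kilobase of exon the mean late share in LLC was 96.2% and the intermediate share 3.76%.

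**Figure D3:**
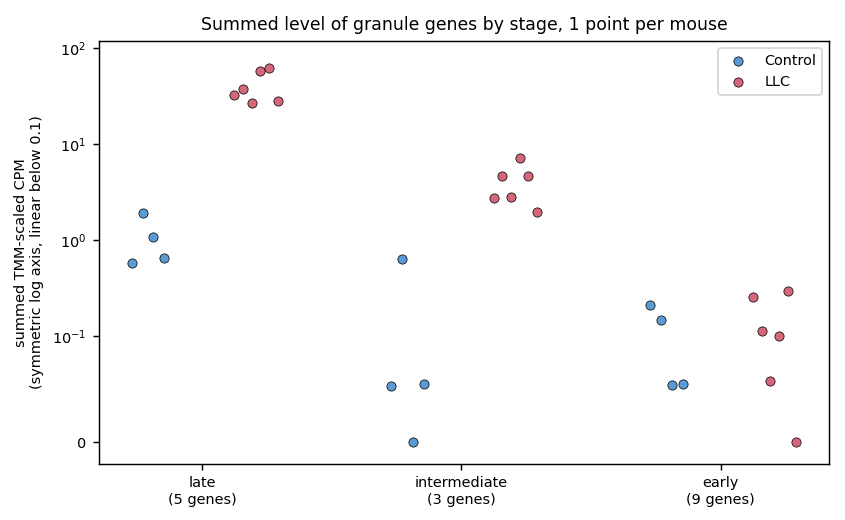
Summed TMM-scaled CPM (symmetric log axis, linear below 0.1) of the late and intermediate members and of 9 genes summed as early (Elane, Mpo and the 7 further genes, regulators among them), 1 point per mouse, in 4 Control and 6 LLC libraries. Late sums run from 26.9 to 63.0 CPM in LLC and from 0.582 to 1.92 CPM in Control, whereas early sums reach at most 0.297 CPM.

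Positions and promoter sequences were then set beside these values. S100a8 lies at chr3:90668978-90670035 on the plus strand and S100a9 at chr3:90692632-90695721 on the minus strand (mm10), 22.6 kb apart with 0 counted genes between them. All 3 intermediate genes lie on chromosome 9, with Camp at chr9:109847379-109849617, Ngp at chr9:110419747-110423012 and Ltf at chr9:111019271-111042767. The gaps are 570.1 kb with 13 counted genes and 596.3 kb with 23. Mmp8 is on the same chromosome at chr9:7558456-7568485, Mmp9 at chr2:164940780-164955850 and Retnlg at chr16:48872621-48874496. The early genes are elsewhere, Elane at chr10:79886247-79888215 and Mpo at chr11:87793581-87804413. Apart from Mpo, no member's exons overlap those of another gene.

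RefSeq promoters (GRCm38.p6, 250 bases before to 50 after the start) were at hand for 9 members, all but Mmp9, and were searched on both strands for 5 motifs. C/EBP factors drive granulocyte genes, and the letters TTNNGNAA stood in 6 of the 9 (S100a8, S100a9, Mmp8, Retnlg, Ngp and Ltf), against 40.7% of 32851 promoters of that length. They were in neither early gene nor in Camp. Of the other motifs, TTCNNNGAA (STAT, in 8.30% of promoters) and TGANTCA (AP-1, in 7.81%) were in 0 of 9. GTAAACA (FoxO, in 3.65%) was in Retnlg alone and the NF-kB motif (in 8.46%) in Camp alone. The 250 bases before the start are given for both calprotectin genes, for Ngp as the member with the most C/EBP matches, and for Mpo as an early gene with 0. Capitals mark matches to TTNNGNAA on either strand, each sequence is written 5′ to 3′ on the strand of its gene, and a match is a description of letters rather than a bound site. The windows are chr3:90668821-90669070 (plus) for S100a8, chr3:90695722-90695971 (minus) for S100a9, chr9:110419558-110419807 (plus) for Ngp and chr11:87793534-87793783 (plus) for Mpo.
S100a8: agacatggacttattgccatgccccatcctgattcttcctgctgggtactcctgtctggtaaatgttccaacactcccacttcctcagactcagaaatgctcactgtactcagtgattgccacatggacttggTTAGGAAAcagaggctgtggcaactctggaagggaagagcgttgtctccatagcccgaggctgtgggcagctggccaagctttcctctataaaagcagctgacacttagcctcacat
S100a9: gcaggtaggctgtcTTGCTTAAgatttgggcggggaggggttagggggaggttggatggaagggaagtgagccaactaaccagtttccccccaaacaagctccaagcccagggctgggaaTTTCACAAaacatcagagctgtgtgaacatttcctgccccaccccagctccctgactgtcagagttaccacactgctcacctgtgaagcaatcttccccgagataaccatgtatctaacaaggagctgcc
Ngp: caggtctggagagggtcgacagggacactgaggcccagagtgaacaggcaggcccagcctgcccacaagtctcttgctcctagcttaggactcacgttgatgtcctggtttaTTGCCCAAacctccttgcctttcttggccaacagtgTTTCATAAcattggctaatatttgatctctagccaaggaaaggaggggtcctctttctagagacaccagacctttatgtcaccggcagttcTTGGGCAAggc
Mpo: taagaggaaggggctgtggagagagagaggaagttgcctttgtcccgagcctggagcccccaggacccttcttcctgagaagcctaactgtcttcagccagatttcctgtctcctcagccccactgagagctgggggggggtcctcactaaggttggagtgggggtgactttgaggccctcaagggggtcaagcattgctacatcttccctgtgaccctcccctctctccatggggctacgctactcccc
Measured from the start, the match of S100a8 begins at base -117, those of S100a9 at -236 and -130, and those of Ngp at -138, -102 and -11.

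The LLC mice differed among themselves in a way that most members shared. Summed over the 10 members the level was 35.6, 42.7, 29.7, 65.2, 67.6 and 29.9 CPM in LLC 1 to LLC 6, against 0.635, 2.62, 1.08 and 0.766 CPM in Control 1 to Control 4. LLC 4 was among the highest pair of LLC mice for 8 of the 8 members that could be ranked, and LLC 5 for 6. LLC 3 and LLC 6 were each among the lowest pair for 6. LLC 1 went its own way, the highest for Mmp8 and the lowest for S100a9 and Mmp9. The coefficient of variation over the LLC mice ran from 35.7% for Mmp8 to 55.8% for Ltf among the tested members.

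Within LLC, log2 CPM of S100a9 was compared with that of 5 genes by exact permutation tests (two-sided, n = 6), with Benjamini-Hochberg adjustment over the 5 relations. With Mmp9 Pearson's r was 0.949 (exact permutation p = 0.0111, adjusted 0.0278) and Spearman's rho 0.943 (exact p = 0.0167, adjusted 0.0417). With Csf3r, the receptor gene for the cytokine that drives neutrophil production, r was 0.901 (exact permutation p = 0.0111, adjusted 0.0278) and rho 0.943 (exact p = 0.0167, adjusted 0.0417). Leaving out LLC 4 and LLC 5, the mice farthest from the median of S100a9, r was 1.000 for Mmp9 and 0.955 for Csf3r. Without LLC 2 alone the exact permutation p of both rose to 0.0667, with r of 0.980 and 0.919. For S100a8, the partner subunit, r was 0.869 (exact permutation p = 0.0611, adjusted 0.102) and rho 0.600 (exact p = 0.242, adjusted 0.403). Without both LLC 4 and LLC 5 r was 0.174, and it was 0.815 without LLC 4 alone and 0.798 without LLC 5 alone. Without LLC 1, which ranked 3 for S100a8 and 6 for S100a9 among the LLC mice, r was 0.993 (exact permutation p = 0.0333). Lcn2, the gene of the siderophore-binding granule protein lipocalin 2, had r of 0.468 (exact permutation p = 0.336, adjusted 0.420) and rho of 0.143 (exact p = 0.803, adjusted 0.803). Without LLC 4 and LLC 5 its r was -0.389, and without LLC 1 it was 0.989 (exact permutation p = 0.0167). Fbxo32, the atrophy ubiquitin ligase gene of muscle fibers, had r of -0.287 (exact permutation p = 0.633, adjusted 0.633) and rho of -0.257 (exact p = 0.658, adjusted 0.803). Without LLC 4 and LLC 5 its r was -0.555.

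Among the 12690 tested genes, those whose rise over the Control mean was most like that of S100a9 across the 6 LLC mice were sought by the root mean square difference in log2 CPM, members apart. They were Csf3r (1.73), Slfn4 (1.75), Chil3 (2.50), Csf2rb (2.56) and Lcn2 (2.72). The measure weighs the size of the rise as well as its pattern, and Chil3 differed from S100a9 in being highest in LLC 1.

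Other neutrophil genes were examined as lists, described by their counts and medians beside a median log2 fold change of 0.0019 over all tested genes. For these lists and the marker lists below, the shares over all 12690 tested genes are 1.65% called higher and 3.99% called lower. Of 26 genes of mature neutrophils, 10 were tested, 7 were called higher and 0 lower, with a median of 3.23 over the 10. The largest fitted values were those of Clec4d, a C-type lectin, at 6.51 ± 1.06, Slfn4 at 4.82 ± 0.38 and Csf3r at 4.17 ± 0.40, with adjusted p of 0.00826, 0.000110 and 0.000184 by edgeR's quasi-likelihood test (Benjamini-Hochberg). Clec4d had 0 counts in Control and 68 in LLC. Set against 3 counts over the Control group, its rise was 15.3-fold, a figure that leaves out counting error in LLC. Its place relative to Slfn4 and Csf3r is not resolved. Without Control 3 the value of Csf3r was 4.82. Csf3r had 0.0529, 0.197, 0.594 and 0.274 CPM in Control and 3.39, 5.47, 3.94, 7.30, 5.94 and 4.52 CPM in LLC, again with LLC 4 and LLC 5 highest. Ly6g, the surface antigen by which mouse neutrophils are usually sorted, had 0 counts in Control and 16 in LLC, and was too low to be tested. Its counts in LLC 1 to LLC 6 were 4, 4, 0, 3, 4 and 1, so the groups overlapped. Set against 3 Control counts in the same way, the rise of Ly6g was 3.60-fold. The filter can keep a gene for its LLC level alone, and without it 14 of 25 were called higher, against 1.15% of 21983 genes.

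Of 20 further genes of secondary granules, their membranes and the oxidase, 18 were tested, 8 were called higher and 0 lower, with a median of 1.06. The largest were Chil3, a chitinase-like protein, at 5.27 ± 1.17, Cd177, a neutrophil surface protein, at 4.85 ± 0.74, and Slpi, an inhibitor of neutrophil proteases, at 4.49 ± 0.61. Their adjusted p was 0.0206, 0.00241 and 0.00119 by edgeR's quasi-likelihood test (Benjamini-Hochberg). LLC 1 carried Chil3, with 155 of its 260 LLC counts and 7.96 CPM, against 0.726 to 1.52 CPM in the other LLC mice, and without LLC 1 its log2 fold change was 4.27. Its call was lost without Control 1, Control 3 or Control 4, with adjusted p of 0.0675, 0.0664 and 0.0676 by edgeR's quasi-likelihood test, and it was 6.53 without Control 2, where Cd177 was at 6.42. The integrin genes Itgam (1.97) and Itgb2 (1.25), Lcn2 (3.29), Pglyrp1 (2.46) and Lrg1 (1.36) made up the rest. Lrg1 was already well read in Control, with a mean of 8.60 CPM there, against 0.382 CPM for S100a9. The oxidase subunit genes Cybb, Cyba, Ncf1 and Ncf4 were tested and not called, with log2 fold changes from -0.12 for Cyba to 0.87 for Cybb.

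**Figure D4:**
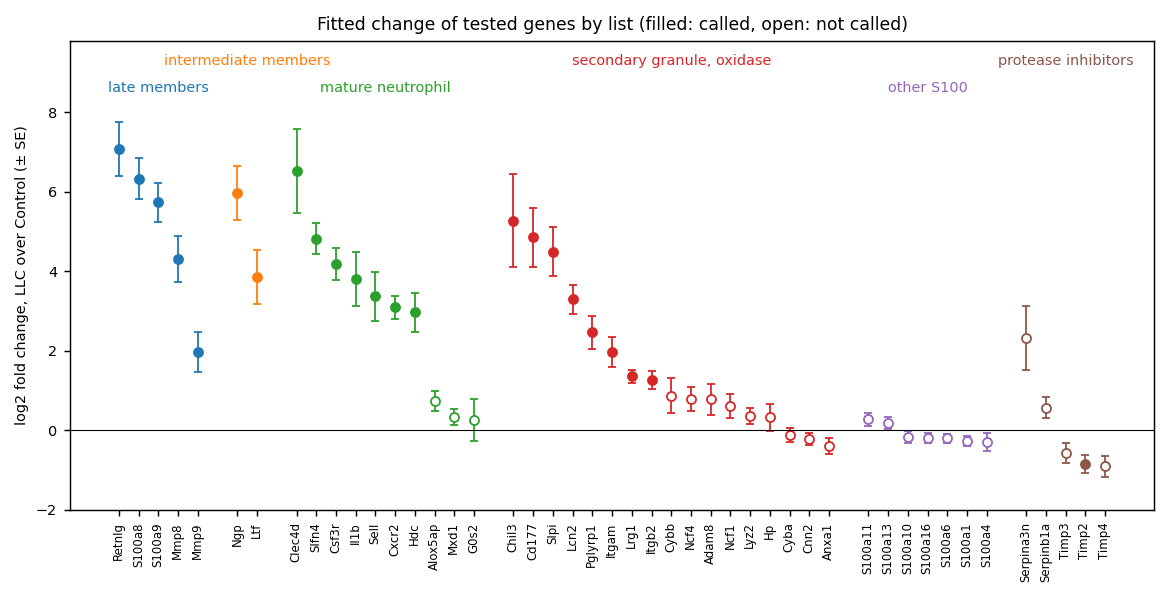
Log2 fold change (LLC minus Control) of tested genes in the member, neutrophil, granule, S100 and protease inhibitor lists, 1 point per gene with its SE as a bar, filled where called and open where not. The 7 tested members run from 1.97 to 7.08, whereas the 7 tested genes of the S100 family lie between -0.30 and 0.27. The point of Clec4d, which had 0 Control counts, is a fitted value that depends on the prior count.

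Among relatives, receptors and inhibitors of the members 1 gene was called. Of 14 other S100 genes, 7 were tested and 0 called by edgeR's quasi-likelihood test or DESeq2, with a median of -0.21 and 1 gene at an unadjusted p under 0.05. Without the filter 1 was called, S100b, which is named because it was the one called. It had 11, 13, 12 and 7 counts in Control and 3, 3, 6, 3, 4 and 5 in LLC, a fitted log2 change of -1.36 ± 0.34 (SE), and the groups did not overlap. Of 7 genes for receptors and partners proposed for calprotectin, 2 were tested and 0 called by either tool, with 2 at an unadjusted p under 0.05, and Tlr4 had at most 3 counts in any library. Of 13 inhibitors of granule proteases, 5 were tested and 1 called, against 1 higher and 2 lower by DESeq2. The edgeR call was Timp2, an inhibitor of metalloproteinases, which fell by 0.86 on the log2 scale (SE 0.23), with an adjusted p of 0.0426 by edgeR's quasi-likelihood test (Benjamini-Hochberg). Its call was lost without Control 1, 2, 3 or 4 (edgeR adjusted p 0.107, 0.0947, 0.116 and 0.104) and without LLC 5 or LLC 6 (0.0909 and 0.0929). Of 5 relatives of Retnlg and of the stefins found in neutrophils, 2 were tested and 0 called by either tool, with 0 at an unadjusted p under 0.05.

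Markers of other cell types were read beside the members. Of 10 macrophage genes, 8 were tested, 0 were called higher and 2 lower, Lyve1 (-2.53) and Mrc1 (-1.05), and their summed level ran from 16.4 to 24.9 CPM in Control and 9.84 to 17.6 CPM in LLC. DESeq2 called 0 macrophage genes higher and 4 lower. Of 5 monocyte genes, all tested, 3 were called higher, Chil3 (5.27, or 4.27 without LLC 1), Plac8 (3.41) and Ly6c2 (3.28, or 4.08 without Control 1), and 1 lower, Fn1 (-1.08). The median log2 fold change over the 5 was 3.28. Their sums were 16.4 to 22.2 CPM in Control and 9.50 to 19.1 CPM in LLC. These sums add genes called in opposite directions, so they do not give the direction of the 3 called higher. DESeq2 called 2 higher and 1 lower and gave no adjusted p for Chil3. Neutrophils also express Chil3 and Plac8, and Chil3 stands in the secondary granule list too. Of 10 erythroid and platelet genes, 7 were tested, 3 called higher and 1 lower, with sums of 60.6 to 84.9 CPM in Control and 90.4 to 146 CPM in LLC. The largest changes were those of Alas2 (1.13), Pf4 (-1.10) and Hbb-bt (0.78). The call of Alas2 was lost without Control 2, 3 or 4 or LLC 5 (edgeR adjusted p 0.0875, 0.0815, 0.105 and 0.0651), and that of Pf4 without Control 2, 3 or 4 or LLC 2, 3 or 6 (0.103, 0.106, 0.105, 0.0560, 0.0555 and 0.0740). The summed erythroid and platelet markers did not overlap between the groups, and their part in the result was not tested. Of 7 endothelial genes, all tested, 2 were called higher, the leukocyte adhesion genes Sele (5.00) and Selp (2.72), and 1 lower, Kdr (-1.13), with sums of 205 to 277 CPM and 213 to 251 CPM. DESeq2 called 3 endothelial genes higher and 1 lower. Sele was at 6.58 without Control 3, and the call of Kdr was lost without Control 1, 3 or 4 or LLC 6 (edgeR adjusted p 0.0753, 0.0629, 0.0771 and 0.0550). The part of monocytes and endothelium in the result was likewise not tested.

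In the remaining marker lists edgeR's quasi-likelihood test called 0 genes. Of 7 muscle genes, all tested, 3 had an unadjusted p under 0.05, and DESeq2 called 1 lower. Of 7 genes of dividing and progenitor cells, 4 were tested, with 0 at an unadjusted p under 0.05 and 0 called by DESeq2, and sums of 35.0 to 42.3 CPM in Control and 36.6 to 54.0 CPM in LLC. Eosinophil and mast cell genes summed to 1.43 to 2.86 CPM and 0.565 to 1.78 CPM, with Epx and Ccr3 at 0 in every library. The 1 gene of these 8 that was tested, Tpsb2, had an unadjusted p under 0.05 and was not called by DESeq2. Lymphocyte genes summed to 0.543 to 0.821 CPM and 0.335 to 0.856 CPM, with 0 of 9 tested. The 5 epithelial genes that could mark tumor cells summed to 0.395 to 0.657 CPM in Control and 0.154 to 0.508 CPM in LLC, with 0 tested.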

How the data were processed

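Total RNA of the tibialis anterior of 4 Control and 6 LLC mice was sequenced from both ends with a strand-specific kit, all libraries in the same lane. The deposited values are raw read counts per gene, made by the authors with TopHat2 on mm10 and HTSeq at default settings. The authors describe RefSeq genes, but the files list Ensembl identifiers, so the annotation release is not given in the sources used here. HTSeq counts by strand at its defaults, and whether that setting matched the kit was not checked. Of 39179 identifiers, 37607 were matched to a gene symbol, and coordinates and exon lengths are those of GENCODE release M21. Groups and replicate numbers came from the sample titles. No 2 replicates were alike within sampling noise (chi-square per degree of freedom 3.93 to 197 over 21 pairs).

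Genes were kept by filterByExpr (minimum count 10, here 0.523 CPM in at least 4 libraries), scaled by TMM and tested with the quasi-likelihood test of edgeR 4.0.16 under R 4.3.3, in a model of group alone. Adjusted p-values are Benjamini-Hochberg values over all 12690 genes. Log2 CPM used a prior count of 2. The SE of an edgeR log2 fold change is its absolute value divided by the square root of the test's F statistic. With Control counts near 0 this SE can be narrower than the counting interval, as for Retnlg. The script was tested on simulated data. Alternatives were other scalings, no filter, mitochondrial genes left out, DESeq2 1.42.0, limma voom (limma 3.58.1) with quality weights, a prior count of 2 for fold changes, a replicate block, and each library omitted once. Summed read shares without each library, and the fit without both Control 2 and LLC 1, were added after the data were seen. At this depth 3 counts are 0.148 to 0.174 TMM-scaled CPM. Binomial intervals are exact (Clopper-Pearson), rate intervals exact conditional Poisson, both at 95%, and cover counting error only, because reads without molecular identifiers are not independent molecules. The members, the gene lists and the tests were chosen with earlier results of these data known. Named beyond the members are the 3 called genes of largest change in each list and the 5 genes most like S100a9. Other genes were named after their values were seen. A tested gene of the secondary granule list is counted there but not reported singly here.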

Additional observations from a re-analysis of the deposited data

Results flagged for a closer look

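In each group of 4 or 6 samples, the most extreme sample's gap to its neighbor was divided by the range of the group, for the log2 CPM of each member with enough reads and for 2 read shares added after the data were seen. A distant sample was found in 1 of 13 groups of samples, against 0.65 given by chance at 1 in 20. It was LLC 1, whose S100a8 share of S100a8 plus S100a9 reads, 49.5%, was the highest of the 6 LLC mice, with a gap ratio of 0.656.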

How the results depend on the processing

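The calls of S100a8, S100a9, Retnlg, Mmp8, Ngp and Ltf held in 19 of 19 alternatives each, with log2 fold changes of 5.70 to 6.99, 5.42 to 6.81, 4.54 to 8.65, 3.00 to 5.56, 4.03 to 8.35 and 3.03 to 5.38, the lowest mostly with a prior count of 2. The call of Mmp9 held in 11 of 19. Among the 19, a prior count of 2 changes the fold change and leaves the adjusted p as it was. Another, without Control 2 and LLC 1, was chosen after the data were seen. Members called were 6 or 7 throughout. Genes called were 715, against 1052 with DESeq2 and 415 to 966 with a sample left out (417, 438, 415 and 418 without Control 1, 2, 3 and 4). Animals differ between groups and same-numbered samples did not deviate together (r from -0.0814 to 0.126 over 4 pairs, 1 of 4 Control samples closest to its own number). With the replicate block 112 genes, 6 members and 5 secondary granule genes (8 without it) were called, and the edgeR adjusted p of Mmp9 was 0.232. Mature neutrophil genes called rose from 7 to 14 with no filter on low counts. With a sample left out, r with S100a9 ranged from 0.798 to 0.993 for S100a8, 0.870 to 0.970 for Csf3r, 0.930 to 0.980 for Mmp9, 0.220 to 0.989 for Lcn2 and -0.686 to 0.192 for Fbxo32, whose sign turned without LLC 1 (0.192) and without LLC 4 (0.0184). The stage shares per kilobase were 96.2% late, against a mean of 91.2% of reads, and 3.76% intermediate, against 8.77%. The causes were not tested. Low Control counts limit the size of every fold change.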
